A study of Homo sapiens with 18 samples.

Results

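The genes described are the glucose transporters SLC2A1 and SLC2A3 and the isoenzymes of the regulated and final steps of glycolysis, HK1, HK2, PFKL, PFKM, PFKP, PKM, LDHA and LDHB. They are 10 of the 19774 genes measured on the array. A probe set, the group of short probes that reads 1 transcript, was taken for a gene only if the array annotation gave it that gene and no other, which left 17 probe sets for the 10 genes. Each gene was read from its probe set with the highest mean over the cell lines.

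The study profiled 18 established cell lines labelled as colorectal cancer (CRC) on a whole-transcriptome array, with 1 array for each line. CAR1, CL40, HT55, HUTU80, LS180, OUMS23, RKO, SW1463, SW48 and SW948 (10 lines) grew in DMEM/F-12 with 15 mM HEPES. COLO320HSR, HCT116, KM12, LS513, MDST8, NCIH716, RCM1 and SNUC1 (8 lines) grew in RPMI-1640 with 25 mM HEPES, to which 1% of a glucose solution and 100 μM sodium pyruvate were added. Both media held glutamine, fetal bovine serum, penicillin and streptomycin, and no treatment was applied to any line. The series concerns molecular subtypes of CRC in laboratory models, but no line carried a subtype label here and none was assigned. The origin of the lines was not checked.

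Values are log2 intensities after RMA, so a difference of 1 unit is a 2-fold difference, and they compare 1 gene between lines but not 1 gene with another. Array medians lay between 3.65 and 3.69. Background was judged from 67 probe sets of 47 genes chosen as restricted to other tissues. Their 95th percentile, 4.11, is the background level, and their 99th percentile was 5.11. Some of these probe sets carried signal, such as that of GCG (12.97 in NCIH716), so the upper percentiles may be raised. The number of genes above background ran from 10415 in RKO to 10991 in CAR1. Since a line had no replicate array, the median SD between the 2 brightest probe sets of a gene, 0.38 over 7379 genes, stood in for the measuring error. The precision is limited by the number of arrays. Of 12 markers of colorectal epithelium, 12 were above background in 8 lines and 11 in KM12, and the fewest were found in HUTU80 (4) and in RKO, MDST8 and COLO320HSR (5 each). Leukocyte and endothelial lists had at most 1 marker above background in any line. The fibroblast list had 6 of 8 in HUTU80 and 4 in both NCIH716 and MDST8. Above the 99th percentile it had 3 in HUTU80 and 2 in both NCIH716 and MDST8.

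Glucose enters cells through facilitative transporters of the SLC2A family and is trapped by hexokinases, which phosphorylate it. Phosphofructokinase makes the committed step of glycolysis as tetramers that can mix liver (PFKL), muscle (PFKM) and platelet (PFKP) subunits, pyruvate kinase makes pyruvate with a gain of ATP, and lactate dehydrogenase, a tetramer of A and B subunits, interconverts pyruvate and lactate. Tumours, those of the colon included, often take up much glucose and release lactate in the presence of oxygen, and several of these isoenzymes differ between tissues and are regulated differently.

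In 3 of the genes 1 line fell far below all others: HK1 in LS513, LDHB in SNUC1 and PFKP in HT55. For each of these genes the sequence just upstream of 1 annotated start is shown. They are from RefSeq on GRCh38.p14, each 250 bases long and written 5′ to 3′ on the strand of the gene, with every CG in capitals. RefSeq windows matched 9 of the 10 genes (26 windows), and for HK1 (7 windows) and PFKP (4 windows) the window with the most CG is printed. The HK1 window is at chr10:69318814-69319063 on the + strand and the PFKP window at chr10:3068939-3069188 on the + strand. The LDHB window, the one given for that gene, is at chr12:21657843-21658092 on the - strand. The HK1 and PFKP windows lie inside the annotated spans of their genes (69270000 to 69401882 and 3067548 to 3136805). They can therefore hold transcribed sequence of transcripts with other starts, and are not to be read as promoters of the whole gene.
HK1: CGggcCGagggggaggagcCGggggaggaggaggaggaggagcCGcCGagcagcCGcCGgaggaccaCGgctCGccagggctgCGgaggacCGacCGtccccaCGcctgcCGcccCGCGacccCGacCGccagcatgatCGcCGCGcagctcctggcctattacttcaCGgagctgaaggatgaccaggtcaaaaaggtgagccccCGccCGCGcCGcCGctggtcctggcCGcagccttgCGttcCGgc
PFKP: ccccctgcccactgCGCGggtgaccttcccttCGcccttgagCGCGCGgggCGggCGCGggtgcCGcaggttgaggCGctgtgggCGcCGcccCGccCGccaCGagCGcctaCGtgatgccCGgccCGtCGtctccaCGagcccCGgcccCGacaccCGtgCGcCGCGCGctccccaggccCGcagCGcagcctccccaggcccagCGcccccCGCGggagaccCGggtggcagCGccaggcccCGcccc
LDHB: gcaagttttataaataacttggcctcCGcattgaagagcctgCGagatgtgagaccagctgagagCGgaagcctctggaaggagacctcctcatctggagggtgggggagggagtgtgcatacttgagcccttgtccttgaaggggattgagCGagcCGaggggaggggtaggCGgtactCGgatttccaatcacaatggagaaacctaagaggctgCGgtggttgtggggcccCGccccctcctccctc

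The HK1 window held 30 CG, and 12.4% of all 35116 windows held as many or more. In the PFKP window there were 37, matched by 4.0% of windows, while LDHB had 9, matched by 54.1%. The median window held 11. The other HK1 windows held 0 to 11. Methylation and binding at these windows were not analysed here, so they describe sequence only.

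Over the 18 lines, 9 of the 10 genes were above background in every line, against 54.8% of the 14393 genes that exceeded it in at least 1 line. The range between lines reached 3 log2 units, or 8-fold, in 5 of the 10 (SLC2A1, SLC2A3, HK1, PFKP and LDHB), against 34% of all genes tested. The median SD between lines was 0.84 for the 10 genes and 0.59 for all genes tested. The genes differed in how that spread arose. SLC2A1 was spread over the panel, SLC2A3 was raised in a few lines, and HK1, PFKP and LDHB were each far lower in 1 line than in the others. Without that line the SD was 0.79 for HK1, 0.54 for PFKP and 0.35 for LDHB. A gap of 3 units or more below every other line, with the others above background, was found for 0.653% of genes tested. HK1 and LDHB were among them, and PFKP missed the mark with a gap of 2.52. A gap of 3 units or more above every other line was found for 0 of the 10 genes, against 2.91% of genes tested.

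**Figure D1:**
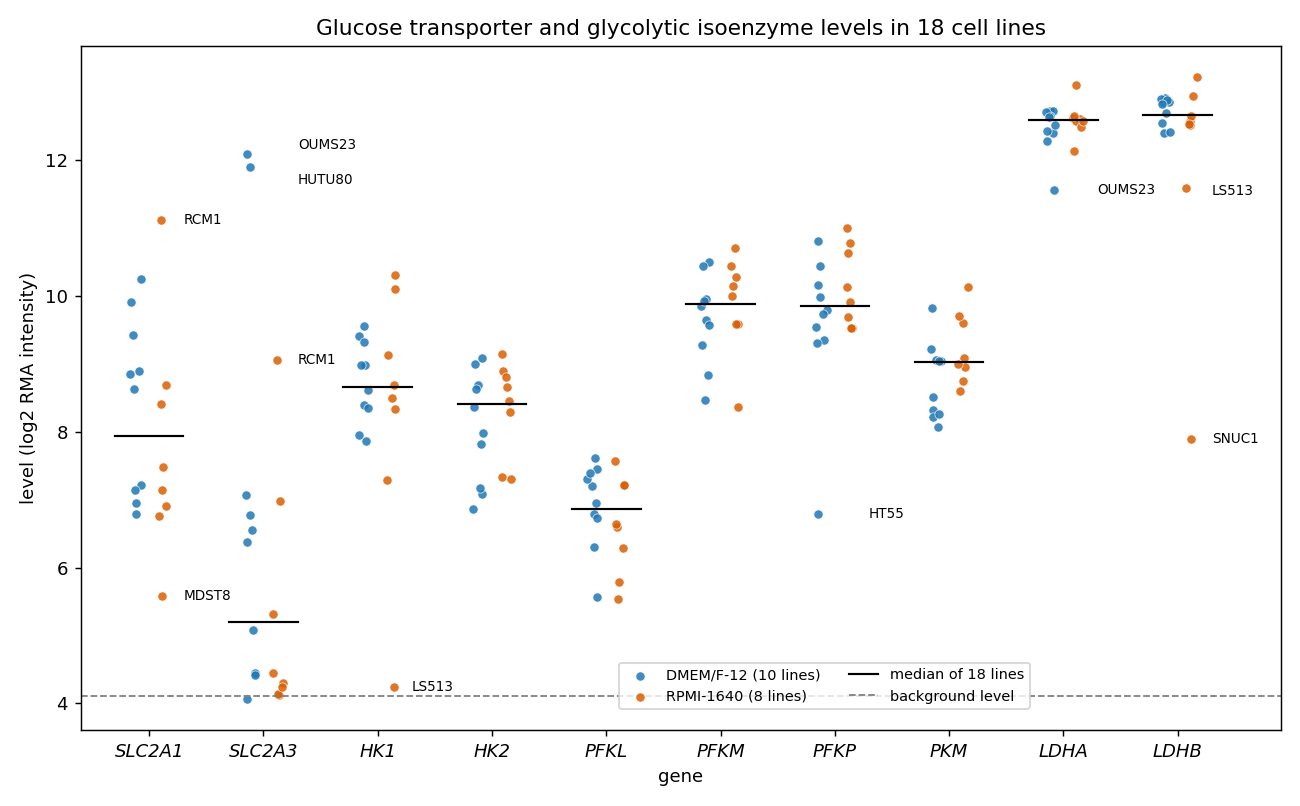
Level (log2 RMA intensity) of each of the 10 genes in each of the 18 lines, with 1 point a line coloured by medium, a bar at the median of 18 lines and a dashed line at the background level of 4.11. SLC2A3 spans 4.06 to 12.09, while HK1 in LS513, PFKP in HT55 and LDHB in SNUC1 each lie apart from the other 17 lines of that gene.

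SLC2A1 encodes GLUT1, the widely expressed basal glucose transporter that many carcinomas raise. Its level was highest in RCM1 (11.12), followed by SW48 (10.24), HT55 (9.91) and SW1463 (9.43). The middle of the panel held CL40 (8.89), OUMS23 (8.85), SNUC1 (8.68), CAR1 (8.63), LS513 (8.41) and KM12 (7.48), around a median of 7.94. At the low end were SW948 (7.22), NCIH716 and LS180 (7.14 each), RKO (6.96), HCT116 (6.91), HUTU80 (6.79), COLO320HSR (6.76) and MDST8 (5.59). RCM1 thus lay 46.3-fold above MDST8, and 5 of the 17 steps between neighbouring lines exceeded the 0.38 taken as measuring error. The second SLC2A1 probe set, dimmer and above background in 8 lines, was again lowest in MDST8 (3.31), while its highest line was SW48 (6.55) with RCM1 at 5.81, so the order of the top lines is uncertain.

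SLC2A3 encodes GLUT3, a transporter of high glucose affinity best known from neurons. It stood at 12.09 in OUMS23 and 11.90 in HUTU80, 119-fold and 104-fold above the panel median of 5.20. RCM1 followed at 9.06, and RKO (7.08), MDST8 (6.99), SW1463 (6.78), CAR1 (6.55) and SW48 (6.38) formed an intermediate group. The remaining lines were low. HCT116 had 5.32, HT55 5.08, LS180 4.45, SNUC1 4.44, CL40 4.42, KM12 4.31, NCIH716 4.25, COLO320HSR 4.14, LS513 4.13 and SW948 4.06. In SW948 the gene was not above background, and the values of 9 lines were at or under the 99th percentile of background, so the order among those lines cannot be read. The probe set used has the suffix x, which marks probes that may also bind related transcripts, and signal from the near-identical SLC2A14 could not be separated in it. In another SLC2A3 probe set, looked at after the values were seen, OUMS23 (11.95), HUTU80 (11.03) and RCM1 (8.71) were again the 3 highest, and 9 lines were above background. Of 8 fibroblast markers, HUTU80 had 3 above the 99th percentile of background, COL3A1 (6.95), DCN (11.27) and LUM (11.30). PDGFRA (3.38) and PDGFRB (3.45) were under background there. OUMS23 had 2 of 8 fibroblast markers above background and none above the 99th percentile. NCIH716 had COL3A1 and LUM at 10.57 each with SLC2A3 at 4.25. The part of the HUTU80 profile in its SLC2A3 value was not tested.

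HK1 encodes the hexokinase found in most tissues, which binds the outer mitochondrial membrane. NCIH716 (10.30) and MDST8 (10.10) had the highest levels, followed by OUMS23 (9.56), RKO (9.41), SW48 (9.32) and COLO320HSR (9.14). CL40 (8.99), CAR1 (8.98), KM12 (8.70), LS180 (8.62), HCT116 (8.50), HT55 (8.39), HUTU80 (8.35) and SNUC1 (8.34) lay around the median of 8.66. SW948 (7.96), SW1463 (7.86) and RCM1 (7.28) were lower, and LS513 was at 4.24. The 17 other lines thus spanned 3.02 units, and LS513 lay another 3.04 units below the lowest of them, an 8.23-fold gap, and 21.3-fold below the median. Its value was just above the background level of 4.11 and under the 99th percentile of background (5.11). LS513 had no replicate array and HK1 had 1 usable probe set, so the loss rests on 1 value. The SD between lines fell from 1.32 to 0.79 without LS513.

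The genes beside HK1 did not share the low value in LS513. Of the 5 genes on each side in RefSeq order, LS513 was the lowest line for 0. HKDC1, the hexokinase-like gene immediately next to HK1, was at 8.66 in LS513 against a median of 5.43 in the other lines. VPS26A was at 10.97 (10.30 to 11.05 in the others), SUPV3L1 at 8.23 (7.70 to 9.67), KIFBP at 7.94 (7.64 to 9.59), TSPAN15 at 6.89 (2.70 to 7.19) and FAM241B at 5.80 (4.37 to 8.31). SRGN, TACR2, NEUROG3 and COL13A1 were not above background in LS513. HK1 was the 1 gene in LS513 that lay 3 units or more below every other line, compared with counts of 1 to 19 in the other 17 lines.

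HK2 encodes the inducible hexokinase, normally of muscle and fat and raised in many tumours. It ranged from 6.87 in CAR1 through a median of 8.41 to 9.15 in COLO320HSR, and 1 of its 17 steps between neighbouring lines exceeded 0.38. COLO320HSR, SW948 (9.09) and RKO (9.0) were the 3 highest. CAR1, HT55 (7.09), HUTU80 (7.17), MDST8 (7.30) and RCM1 (7.34) each lay more than 1 unit below the median. In LS513, HK2 was at 8.46, 0.05 above the median, so the hexokinase balance of that line differed through HK1. The 2 HK2 probe sets did not follow each other over the 18 lines (r = -0.10), and in the dimmer one the highest line was HUTU80 (7.35) and the lowest HT55 (3.75), so the HK2 order depends on the probe set read. LS513 was at 5.24 in the dimmer one, against a mean of 5.26.

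**Figure D2:**
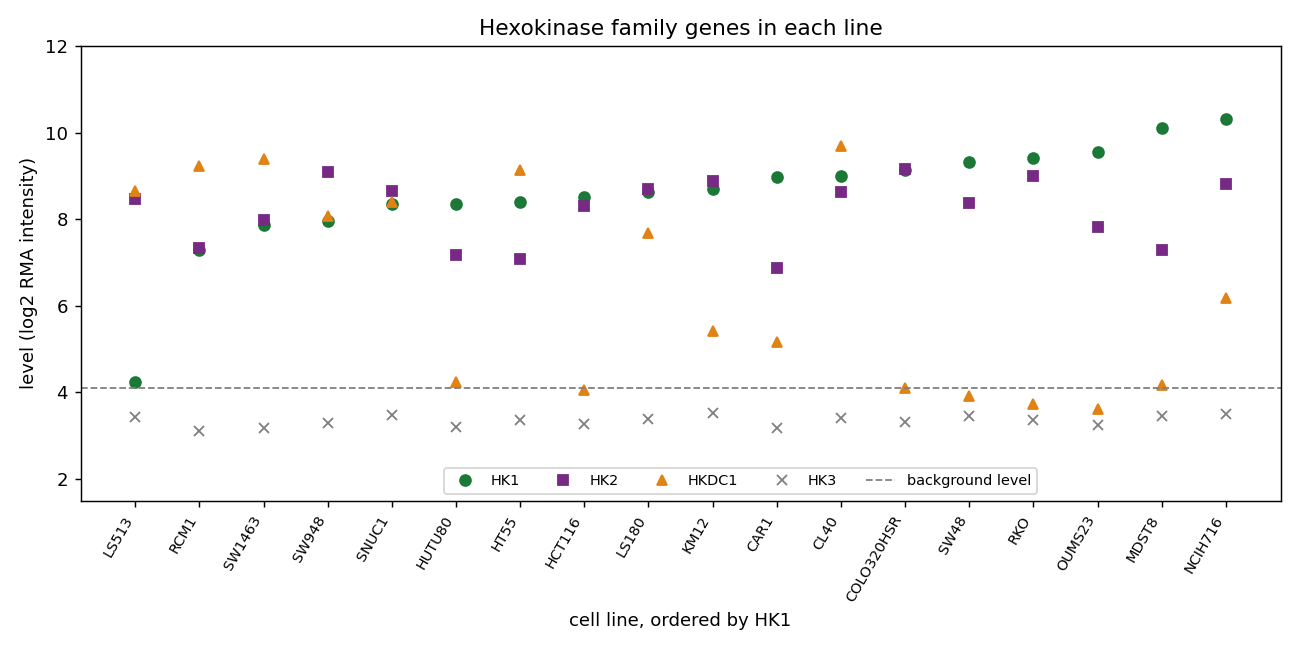
Levels (log2 RMA intensity) of HK1, HK2, HKDC1 and HK3 in each line, with lines ordered from the lowest to the highest HK1 and a dashed line at the background level; levels of different genes are not comparable. HK1 falls to 4.24 in LS513, where HK2 (8.46) and HKDC1 (8.66) are well above background, while HK3 lies under background in all lines.

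Among the other hexokinases, HKDC1 reached 9.70 in CL40, 9.40 in SW1463, 9.23 in RCM1, 9.13 in HT55, 8.66 in LS513, 8.39 in SNUC1 and 8.08 in SW948. It was not above background in OUMS23 (3.63), RKO (3.72), SW48 (3.92), HCT116 (4.06) and COLO320HSR (4.11). The 4 lines with the lowest HK1, namely LS513, RCM1, SW1463 and SW948, were all among the 7 with HKDC1 above 8, a reading made after the values were seen. HK3 was above background in 0 of 18 lines. ADPGK, which phosphorylates glucose with ADP, was at 8.21 to 9.31.

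The phosphofructokinase subunits are the catalytic chains of the committed step. PFKL ran from 5.53 in NCIH716 and 5.57 in RKO to 7.57 in SNUC1 and 7.62 in SW1463, with a median of 6.87. COLO320HSR (5.79) also lay more than 1 unit below that median. The PFKL probe set used has the suffix x, and the second one followed it over the 18 lines (r = 0.96), with RKO (4.97) and NCIH716 (5.11) again lowest. PFKM ran from 8.36 in LS513, 8.47 in HUTU80 and 8.84 in CAR1 to 10.51 in RKO and 10.70 in COLO320HSR, with a median of 9.88. In COLO320HSR, RKO and NCIH716 (10.44) the muscle subunit was thus among the 3 highest of the panel while the liver subunit was among the 3 lowest. In the second PFKL probe set HUTU80 (5.78) was below COLO320HSR (5.90), so for COLO320HSR the PFKL rank depends on the probe set read.

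PFKP, the platelet subunit, was between 9.30 and 11.0 in 17 lines, with a median of 9.85 over all lines. MDST8 (11.0), SW48 (10.80), HCT116 (10.77) and KM12 (10.63) were the highest. HT55 was at 6.78, which is 2.52 units or 5.73-fold below CAR1 (9.30), the next lowest line, and 8.41-fold below the median. The SD between lines was 0.92 with HT55 and 0.54 without it. The other PFKP probe set was above background in no line and gave no second reading. In HT55, PFKL (6.79) and PFKM (9.95) lay -0.08 and 0.07 from their medians. Of the genes beside PFKP, PITRM1 (7.84), WDR37 (6.87), IDI1 (10.60) and KLF6 (11.37) were within the range of the other lines in HT55, a comparison added after the data were seen.

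PKM encodes the pyruvate kinase of most tissues and of tumours, and its spliced forms PKM1 and PKM2 were not separated by the 1 probe set used. It ran from 8.07 in OUMS23 to 10.14 in KM12, a 4.18-fold range, with a median of 9.02. SW48 (9.83), NCIH716 (9.70) and MDST8 (9.59) followed KM12. SW948 (8.22), HUTU80 (8.26) and HT55 (8.33) followed OUMS23 at the low end. Neighbouring lines were close in this order, and 1 of the 17 steps exceeded 0.38.

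LDHA encodes the A subunit of lactate dehydrogenase, which favours lactate formation, and it was the least variable of the 10 genes. It ran from 11.56 in OUMS23 to 13.11 in COLO320HSR with a median of 12.59, and its SD of 0.31 was larger than that of 12.3% of genes tested. OUMS23 lay 0.58 below RCM1 (12.14), the next lowest line. The 15 lines besides these and COLO320HSR were between 12.28 and 12.72.

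LDHB encodes the B subunit, abundant in oxidative tissues such as heart. In 16 lines it was between 12.39 in HT55 and 13.22 in COLO320HSR. LS513 had 11.59, and SNUC1 had 7.89. The gap of 3.70 units below LS513 was 13.0-fold, and SNUC1 lay 27.5-fold below the median of 12.67. Both LDHB probe sets showed it, with 7.74 in SNUC1 and 11.49 in LS513 in the second, and their r over the 18 lines was 0.999. The SD between lines fell from 1.18 to 0.35 without SNUC1. The values in SNUC1 were above the background level, but both probe sets have the suffix x, and whether they include signal from related transcripts was not tested. LDHA in SNUC1 was at 12.58, -0.01 from its median. In a comparison added after the data were seen, RECQL, a helicase gene near LDHB, was lowest in SNUC1 (7.76 against 8.37 to 10.51 elsewhere), and GOLT1B (9.02), PYROXD1 (8.85), CMAS (8.66) and C2CD5 (8.81) were within the range of the other lines.

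Isoenzyme balance was read as a relative shift, the deviation of 1 gene from its own median minus that of its partner, on the log2 scale. For HK2 relative to HK1 the shift was 4.46 in LS513, a 22.0-fold tilt to HK2, and 1.38 in SW948. The tilt was to HK1 in MDST8 (-2.55), CAR1 (-1.86), OUMS23 (-1.49), NCIH716 (-1.25) and HT55 (-1.06). The other 11 lines were within 1 unit of the panel balance. In MDST8, HK1 was 1.44 above its median. Read with the dimmer HK2 probe set, the shift was still 4.45 in LS513, but -0.80 in MDST8, -0.35 in CAR1 and -0.31 in OUMS23, and 2.46 in HUTU80 (from -0.93). The tilt of LS513 was thus similar with either HK2 probe set. Both readings use the same HK1 value of LS513 (4.24), which comes from 1 probe set on 1 array and is close to background. They therefore do not test that value, on which the size of the tilt rests. The sizes for the other lines named here depended on the HK2 probe set. Exceptions were HT55 (-1.19), NCIH716 (-0.88) and SW948 (1.86), which moved by less than 1.5 times.

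For SLC2A3 relative to SLC2A1 the shift was 7.86 in HUTU80 (233-fold), 5.99 in OUMS23, 4.15 in MDST8, 2.87 in RKO and 1.15 in HCT116. The tilt was to SLC2A1 in HT55 (-2.09), CL40 (-1.72), LS513 (-1.53), SNUC1 (-1.49) and SW48 (-1.11). SLC2A3 was near background in CL40, LS513 and SNUC1. In HT55 (5.08) it was under the 99th percentile of background (5.11), and its other SLC2A3 probe sets (4.06 and 3.45) were not above background. This limits how far the shifts of these lines can be read. With the mean of all probe sets of each gene MDST8 was at 2.76, and with the SLC2A3 and SLC2A1 probe sets of largest SD SW48 was at -1.93. RCM1, with the highest SLC2A1 and an SLC2A3 below those of OUMS23 and HUTU80 alone, kept a shift of 0.69. HUTU80 and MDST8 combined a raised SLC2A3 with an SLC2A1 more than 1 unit below its median, whereas OUMS23 had SLC2A1 0.91 above it.

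Among phosphofructokinase subunits, HT55 had shifts of -2.99 for PFKP relative to PFKL and -3.14 for PFKP relative to PFKM. PFKM relative to PFKL separated RKO (1.92), COLO320HSR (1.90) and NCIH716 (1.89) from LS513 (-1.88) and SNUC1 (-1.01). PFKP relative to PFKL was highest in NCIH716 (1.61), HCT116 (1.49), MDST8 (1.37) and RKO (1.24). With the mean of all probe sets, which takes in the PFKP probe set at background, HT55 was at -1.58 and -1.69, and HCT116 and MDST8 at 0.96 and 0.79 for PFKP relative to PFKL. For PFKP relative to PFKM, HUTU80 (1.54) and LS513 (1.19) were highest, through low PFKM. LDHB relative to LDHA was -4.77 in SNUC1 (27.2-fold), -1.13 in LS513 and 1.19 in OUMS23, and between -0.29 and 0.38 in the other 15 lines.

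**Figure D3:**
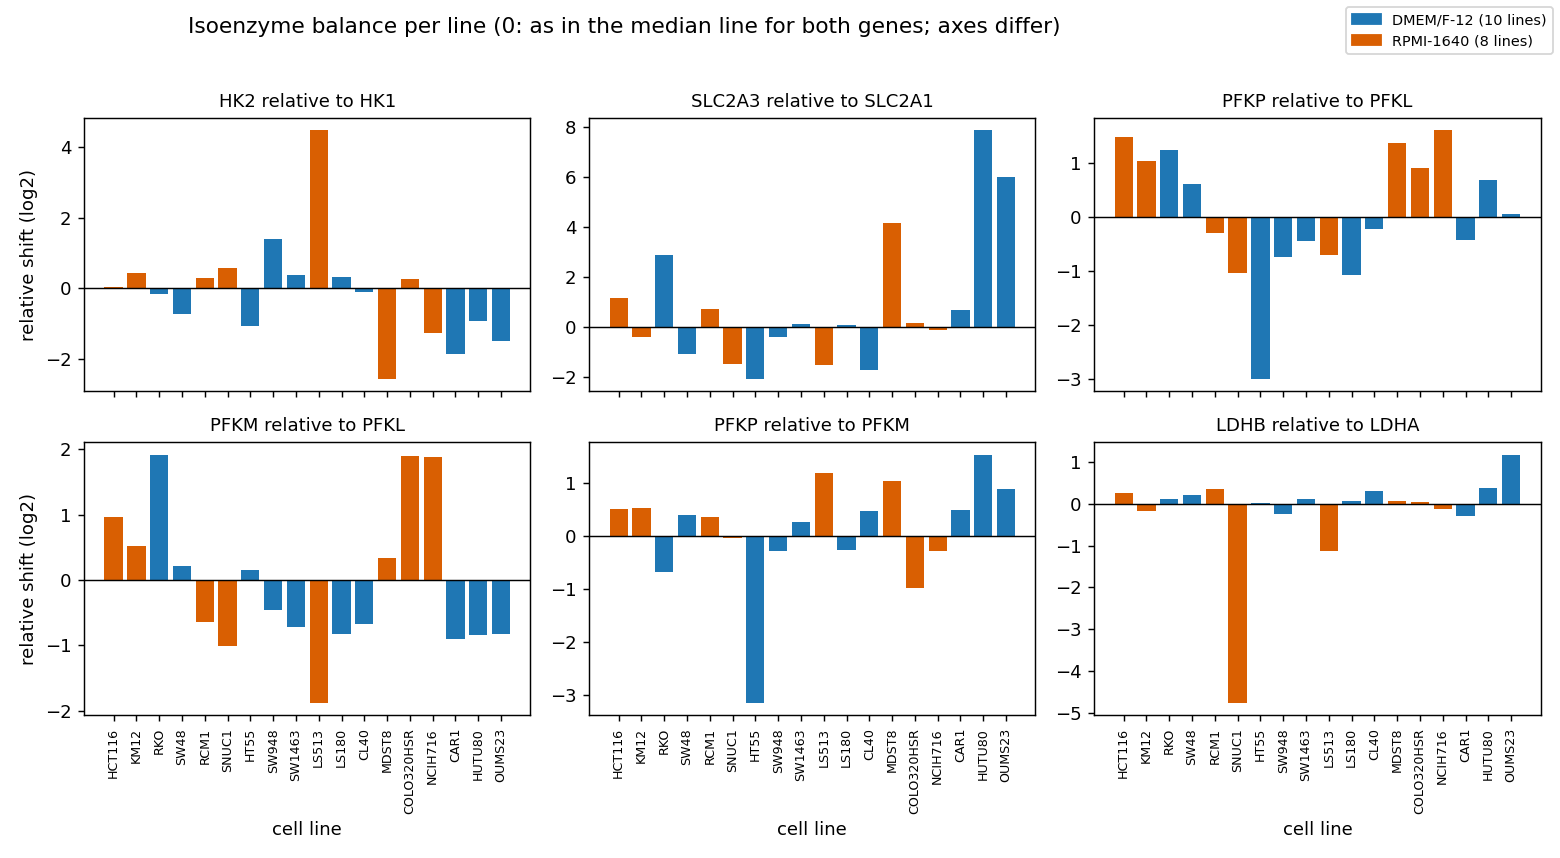
Relative shift (log2) of 6 isoenzyme pairs in each line, as the deviation of the first gene from its own median over 18 lines minus that of the second, with bars coloured by medium and a separate vertical axis for each pair. LS513 stands at 4.46 for HK2 relative to HK1, SNUC1 at -4.77 for LDHB relative to LDHA and HT55 at -2.99 for PFKP relative to PFKL.

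Read by line, LS513 had 4 genes at least 1 unit below the median (SLC2A3, HK1, PFKM and LDHB) and none at least 1 unit above. COLO320HSR was the highest line for HK2, PFKM, LDHA and LDHB, and lay more than 1 unit below the median for SLC2A1, SLC2A3 and PFKL. Its HK2 rank did not hold in the dimmer HK2 probe set. SLC2A3 in LS513 (4.13) and COLO320HSR (4.14) was near the background level of 4.11. Several other lines were about as low, so SLC2A3 does not set these lines apart. OUMS23 was the highest for SLC2A3 and the lowest for PKM and LDHA. LS180 and CL40 had no gene 1 unit or more from its median. MDST8 had SLC2A3, HK1 and PFKP above and SLC2A1 and HK2 below by 1 unit or more.

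**Figure D4:**
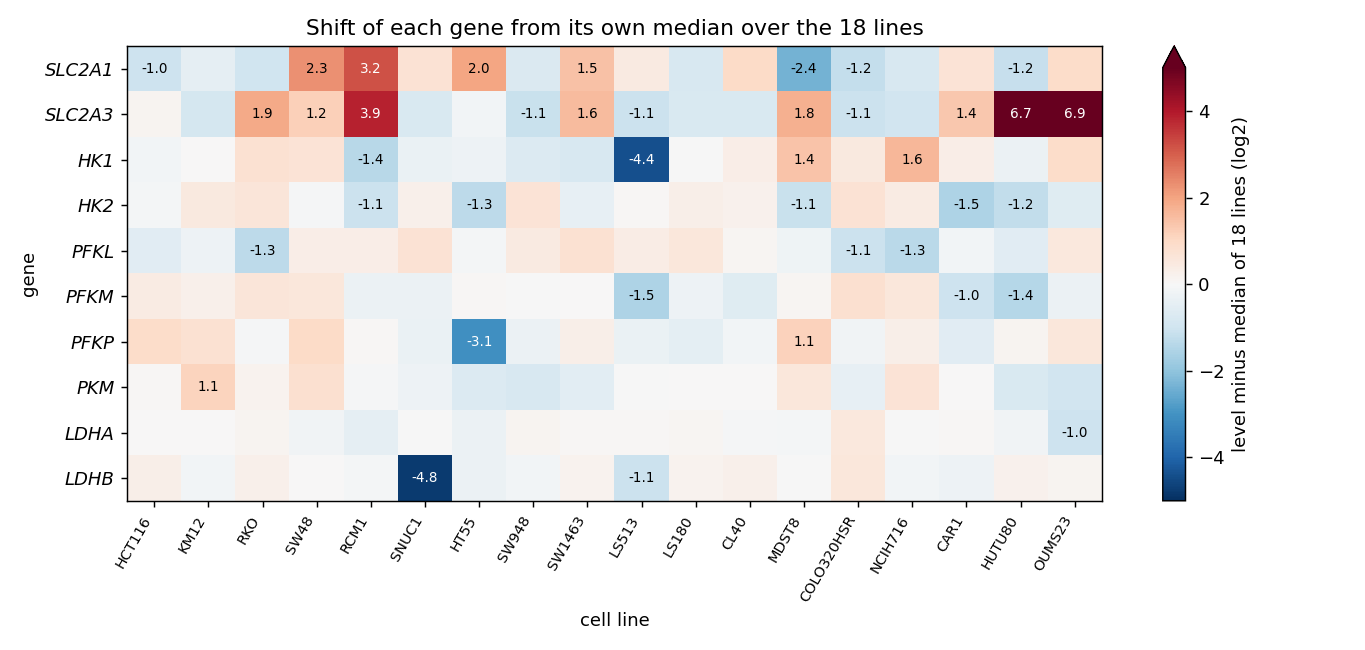
Level of each gene minus its own median over the 18 lines (log2, colour scale ending at 5 units on either side), with the value printed where it is 1 unit or more. HK1 in LS513 (-4.4) and LDHB in SNUC1 (-4.8) are the deepest losses, and SLC2A3 in OUMS23 (6.9) and HUTU80 (6.7) the greatest gains.

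A wider count over 15 glycolytic enzyme genes above background in all lines, made after the values were seen, placed OUMS23 lowest for 5 (PKM, LDHA, GPI, PGK1 and PGAM1). That is 33.3% of the 15, where OUMS23 was lowest for 7.61% of the 7882 genes above background in all lines. HT55 was lowest for 3 (PFKP, ALDOA and ENO1, 20% against 7.42%). COLO320HSR was highest for 4 (26.7% against 8.82%), as was NCIH716 with HK1, ALDOA, TPI1 and GAPDH (26.7% against 6.36%). The differences behind these ranks were small for the abundant enzymes. GAPDH, for example, had an SD of 0.12, with 13.27 in NCIH716 and 12.81 in RCM1.

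Correlations between isoenzymes over the 18 lines are given as descriptions, since all points share 1 array type and 1 normalization. HK2 and HK1 had r = 0.02 and rho = 0.14, and r = 0.15 without LS513. SLC2A3 and SLC2A1 had r = 0.15 and rho = 0.12, with r = 0.39 without OUMS23 and HUTU80, and -0.14 in the DMEM/F-12 lines against 0.45 in the RPMI-1640 lines. LDHB and LDHA had r = -0.02 and rho = 0.23, and r = 0.10 without SNUC1. Within these pairs the level of 1 isoenzyme thus said little about that of the other. PFKM and PFKL had r = -0.40 and rho = -0.53, and r = -0.60 without LS513 and HUTU80. Their r was 0.03 in the 10 DMEM/F-12 lines and -0.77 in the 8 RPMI-1640 lines, and whether these differ was not tested. PFKP with PFKL had r = -0.08 and rho = -0.24, and PFKP with PFKM r = 0.19 and rho = 0.38, the latter 0.44 without HT55. Over all 45 pairs of the 10 genes the median r was 0.02. It was above 0.5 for HK1 with PFKM (0.59), SLC2A1 with PFKL (0.55) and HK2 with LDHA (0.50), and below -0.5 for SLC2A3 with LDHA (-0.70) and SLC2A3 with HK2 (-0.59). Every r with HK2 here is that of its brighter probe set, which the dimmer one did not follow (r = -0.10). In the dimmer one HUTU80, high in SLC2A3, was the highest line (7.35), so r with HK2 may depend on the probe set read.

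The 3 genes most like each of the 10, by Pearson r over the 18 lines among all genes tested, were as follows. For SLC2A1 they were CRELD1 (0.80), INAVA (0.80) and ZBTB7B (0.79), with 0.80, 0.75 and 0.79 without RCM1 and MDST8. HK2 was most like ALDOA (0.81), the aldolase gene of the same pathway, then GPR180 (0.81) and XK (0.81), with 0.76, 0.75 and 0.84 without CAR1 and HT55. These were read from the brighter HK2 probe set, which the dimmer one did not follow. For PFKL the 3 were EPHA1 (0.84, and 0.78 without NCIH716 and RKO), YBX2 (0.84, and 0.85) and the E-cadherin gene CDH1. The CDH1 levels fell into separate clusters of lines, so no pooled value is given for it. PFKM was most like NBPF3 (0.80), TXNL4B (0.77) and HVCN1 (0.77), and PKM like PIGK (0.79), CD109 (0.76) and CYP4V2 (0.76).

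For the genes low in 1 line the likeness rested on that line to differing degrees. HK1 was most like SCPEP1 (0.82), CLIC4 (0.81) and CGRRF1 (0.78), with 0.69, 0.58 and 0.57 without LS513 and NCIH716. LS513 was the lowest line for these 3 genes too, SCPEP1 being at 3.96, under background. PFKP was most like THUMPD3 (0.86), HIF1A (0.86) and DPY19L1 (0.79), each lowest in HT55, with 0.75, 0.68 and 0.43 without HT55 and MDST8. HIF1A, the oxygen-regulated activator of glycolytic genes, was at 9.08 in HT55 and 11.07 in MDST8, the lowest and highest lines for PFKP as well. These are RNA levels, and a link between HIF1A and PFKP was not tested. LDHB was most like AP3S1 (0.90), TMED7 (0.88) and NT5C3B (0.86), all lowest in SNUC1, but without SNUC1 and LS513 these became -0.02, -0.02 and 0.08. LDHA was most like MIEN1 (0.85), DIPK2A (0.83) and POLR3GL (0.82), with 0.73, 0.52 and 0.44 without OUMS23 and COLO320HSR. SLC2A3 was most like NLGN4X (0.84), MYL9 (0.83) and SALL4 (0.83), and these fell to 0.17, 0.40 and -0.12 without OUMS23 and HUTU80.

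The 2 media differed in base formula, in HEPES (15 mM in DMEM/F-12, 25 mM in RPMI-1640) and in the glucose and pyruvate added to RPMI-1640. The total glucose and pyruvate of each medium were not compared. No other grouping is given by the labels. No gene was called between them by limma at a Benjamini-Hochberg adjusted p of 0.05 (0 of 14393 higher and 0 lower, 0% each), and 2.56% of genes (368) had an unadjusted p under 0.05. Of the 10 genes, 0 were called, and all had an adjusted p of 0.999. The 2 groups of lines overlapped for every one of the 10, and 0.00695% of genes tested had groups that did not overlap. Because each line grew in 1 medium, medium and line cannot be told apart.

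The widest difference was that of SLC2A3, with a mean of 5.33 ± 1.79 (SD, n = 8) in RPMI-1640 and 6.88 ± 2.91 (SD, n = 10) in DMEM/F-12. This difference was -1.55 (limma 95% interval -3.87 to 0.77). It became -0.97 without OUMS23 and -0.99 without HUTU80. SLC2A1 differed by -0.65 (-2.02 to 0.73), which became -1.12 without RCM1 and -0.33 without MDST8. LDHB differed by -0.74 (-1.81 to 0.33), which became -0.16 without SNUC1. HK1 differed by -0.42 (-1.68 to 0.84), which became 0.17 without LS513, -0.27 without RCM1, -0.67 without MDST8 and -0.70 without NCIH716. Single lines thus set the size of these differences. The interval was narrowest for LDHA, at 0.13 (-0.17 to 0.43), which bounds its difference to under 1 unit. PKM was 0.47 higher in RPMI-1640 (-0.06 to 1.01), with means of 9.23 ± 0.53 (SD, n = 8) and 8.76 ± 0.56 (SD, n = 10). For HK2, PFKL, PFKM and PFKP the differences were 0.29 (-0.44 to 1.03), -0.32 (-0.99 to 0.34), 0.24 (-0.41 to 0.89) and 0.56 (-0.29 to 1.41). That of PFKP became 0.25 without HT55.

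**Figure D5:**
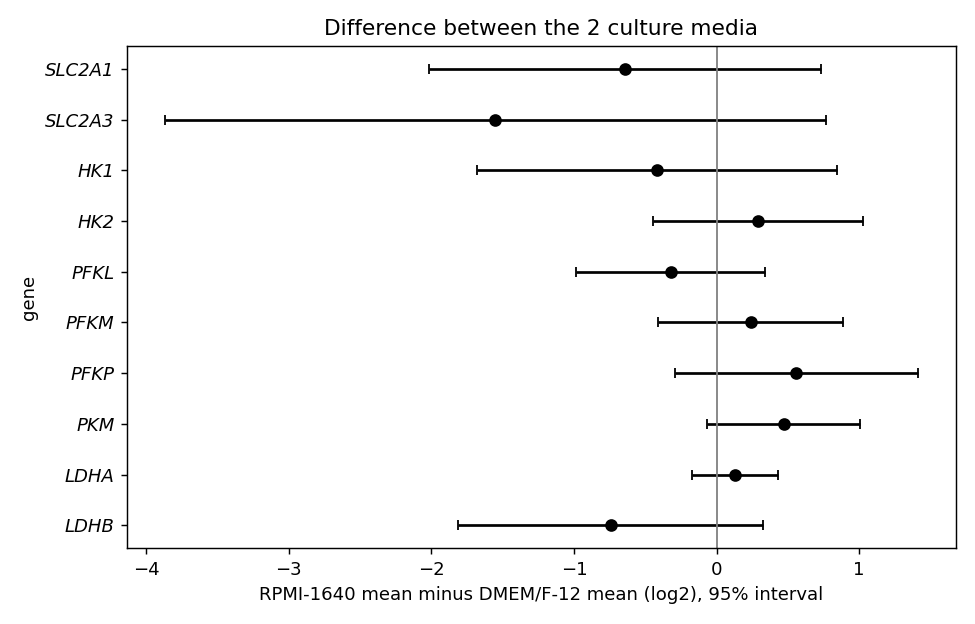
Difference of the RPMI-1640 mean (8 lines) from the DMEM/F-12 mean (10 lines) for each gene, on the log2 scale, with the 95% interval from limma as bars. All 10 intervals include 0, from the narrow one of LDHA at 0.13 to the wide one of SLC2A3 at -1.55.

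Of 67 other genes of glucose metabolism on 7 lists, 61 were measured and 52 tested, 0 were called between the media in either direction, and 25 had a range of 3 units or more. The lists' median differences between media were between -0.17 and 0.09, beside 0.00 for all genes tested. Of 9 other glucose transporters tested, the widest spread was in SLC5A1, the sodium-coupled transporter of the gut, with 9.20 in SW1463, 8.73 in LS513 and 8 lines above background. SLC2A10 followed, with 8.16 in RCM1 and 7.32 in RKO. LS513 thus combined an SLC2A1 0.46 above the median with a high SLC5A1 and an SLC2A3 near background.

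Of 12 other glycolytic enzymes tested, ALDOC and ENO2, the aldolase and enolase forms of brain, varied most. ALDOC was under background in MDST8 (3.30) and CAR1 (3.38) and highest in SW1463 (9.77). ENO2 was highest in RKO (8.39) and lowest in HT55 (3.35). PGK1 (difference 0.33, limma unadjusted p = 0.0205, adjusted 0.999) was the 1 enzyme of this list under an unadjusted 0.05.

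The regulators and the neighbouring pathways varied more. PFKFB2 and PFKFB4, enzymes that set the level of the activator of phosphofructokinase, ran from 3.36 in COLO320HSR to 8.42 in SW1463 and from 4.20 in NCIH716 to 8.33 in MDST8. PCK1 and FBP1, enzymes of glucose synthesis, ran from under background to 11.74 in SW1463 and 8.84 in SW948. SLC16A7, a monocarboxylate carrier, was above background in 5 lines with 9.02 in NCIH716, and PDK4, an inhibitor of pyruvate oxidation, in 7 with 7.90 in COLO320HSR. MPC1, a subunit of the mitochondrial pyruvate carrier, was 0.89 higher in RPMI-1640 (limma unadjusted p = 0.00668, adjusted 0.999). TXNIP, which is induced by glucose and restrains its uptake, was under background in HCT116 (3.45) and HUTU80 (3.65) and highest in LS513 (11.90) and HT55 (11.83). EPAS1, a second oxygen-regulated factor, ran from 3.16 in COLO320HSR to 11.43 in OUMS23.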

How the data were processed

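Total RNA from 18 cell lines, 1 array each, was hybridised to a human expression array. Per the submitters' processing notes, the authors used RMA from the affy package, which yields the deposited log2 intensities. Versions: not given in the sources used here. RMA corrects background and equalises the arrays, so small global differences between lines are removed and values near background are compressed. The values ran from 2.31 to 13.71 and were used as deposited. Each line was measured without a replicate array, and p-values between media measure only the spread between lines.

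Of 54613 probe sets, 40914 matched 1 gene, 864 several and 12835 none. Gene names were those of the array annotation. An Entrez ID in the RefSeq table of GRCh38.p14, used for names, gene order and upstream windows, was found for 40858 probe sets with 1 gene. Each gene was read from its probe set with the highest mean (19774 genes). The background list held 50 genes chosen as restricted to other tissues, not checked gene by gene, and it included GCG, which was high in some lines. Genes above background in at least 1 line (14393) were tested between media with limma 3.58.1 in R 4.3.3 (trend, all 18 lines, no covariate) with Benjamini-Hochberg adjustment over all of them. Other values were computed in Python 3.11.15 and carry no test. The scripts were checked on simulated data.

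The genes, lists and comparisons were chosen with earlier results of these data known. Named genes were the 10 members, the 3 most correlated with each, on each pathway list the 2 of largest SD and any gene called between media (0), the 5 on each side of HK1, and markers present or absent against the label; other genes were named after their values were seen. Some genes of the lists are not reported here. Alternatives were other probe set rules, array scaling, background levels, limma settings, Spearman correlation, and leaving out lines.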

Additional observations from a re-analysis of the deposited data

Results flagged for a closer look

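Within each medium, the highest and lowest line of each gene were examined by Dixon's criterion, in 20 groups of lines. It divides the gap to the next line by the range of all lines in the group, the examined line included. By it 3 values stood apart. Chance marks about 1 in 20 such groups. PFKP in HT55 was 6.78, which was 2.52 below the next of the 10 DMEM/F-12 lines. LDHA in OUMS23 was 11.56, which was 0.72 below the next of the same 10 lines. LDHB in SNUC1 was 7.89, which was 3.70 below the next of the 8 RPMI-1640 lines. HK1 in LS513 (4.24) was not marked within its medium.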

How the results depend on the processing

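Of 678 values recomputed under an alternative, 661 were counted as unchanged, 16 moved and 1 reversed. This count does not show that sizes held. The LDHB difference between media went from -0.74 to -0.16 without SNUC1 and was counted as unchanged. The r of SLC2A3 with SLC2A1 was 0.15 over all lines, with a wide 95% interval of -0.34 to 0.57. Its values of -0.14 within DMEM/F-12 and 0.45 within RPMI-1640 were also counted as unchanged. With the mean of all probe sets the shift in HT55 became -1.58 for PFKP relative to PFKL (from -2.99) and -1.69 for PFKP relative to PFKM (from -3.14), since the second PFKP probe set was above background in no line. The range of SLC2A1 became 4.02 and that of PFKP 2.24. With the probe set of largest SD the range was 9.06 for SLC2A3 and 3.60 for HK2, and the shift of HK2 relative to HK1 was -0.80 in MDST8 (from -2.55) and -0.35 in CAR1 (from -1.86), while that of SLC2A3 relative to SLC2A1 was 6.88 in OUMS23 (from 5.99). The r of PFKM with PFKL was -0.77 within RPMI-1640 (from -0.40), and the cause was not tested. With Spearman rho, 7 of the 30 most similar genes were shared. The difference of HK1 between media reversed to 0.17 (from -0.42) without LS513. Without a filter on dim genes 648 genes had an unadjusted p under 0.05 between media.

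Leaving out each line in turn, the count of genes called between media stayed at 0 and that of the 10 genes called at 0, with 282 to 473 genes at an unadjusted p under 0.05. The difference between media ranged from -0.70 to 0.17 for HK1, 0.16 to 0.44 for HK2, 0.03 to 0.20 for LDHA, -0.92 to -0.16 for LDHB, -0.47 to -0.17 for PFKL, 0.11 to 0.46 for PFKM, 0.25 to 0.69 for PFKP, 0.34 to 0.59 for PKM, -1.12 to -0.33 for SLC2A1 and -2.08 to -0.97 for SLC2A3. The r ranged from -0.05 to 0.15 for HK2 with HK1, 0.0025 to 0.34 for SLC2A3 with SLC2A1, -0.14 to -0.03 for PFKP with PFKL, -0.56 to -0.31 for PFKM with PFKL, 0.13 to 0.44 for PFKP with PFKM and -0.11 to 0.10 for LDHB with LDHA. No paired analysis was possible because each line had 1 array and grew in 1 medium. Signal over background limits SLC2A3 in 9 lines and HK1 in LS513.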
